A study of Saccharomyces cerevisiae with 4 samples.

Results

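The regions described here are 76 loci at which Swc4-13myc was called in both libraries of a yaf9d strain and in neither library of the wild_type strain, away from tRNA genes. They are 76 of the 1726 loci of the series, or 4.4% of all loci and 16.4% of the 463 loci called in both yaf9d libraries. A locus is a stretch of the nuclear genome formed by joining all peaks of the 4 libraries that overlapped by at least 1 bp. The rule left 102 loci called in yaf9d alone, and 26 of these overlapped a tRNA gene and were set aside. The 76 loci were chosen by these calls, and a call rests on the peak's pileup over its background, so their presence in yaf9d and their absence from the wild_type lists are a description and were not tested.

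The data are ChIP-seq of budding yeast: chromatin was immunoprecipitated through the myc tag on Swc4 and the recovered DNA was sequenced. The yaf9d group holds 2 libraries of haploid BY cells with a deletion of YAF9 named in the sample titles, and the wild_type group holds 2 libraries of haploid BY cells without it. Cells of both genotypes carried Swc4-13myc, were grown without treatment in rich medium (YPD) and were taken in mid-log phase. For the yaf9d samples the genotype field names only the tag. The sources used here give neither the way YAF9 was removed, the number of clones, nor whether the libraries of a genotype were separate cultures, so differences between replicates may be technical.

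Swc4 is an essential protein shared by SWR1, the complex that places the histone variant H2A.Z in nucleosomes next to promoters, and by NuA4, which acetylates histone H4 and H2A.Z. Yaf9 is a YEATS domain protein found in the same complexes, where it contacts Swc4 and reads acylated histone tails. In wild-type yeast both complexes are known mainly from the nucleosome-depleted regions and the first nucleosomes of active genes.

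Each library has its own peak list, called on that library alone, and the sources used here give no read totals. The yaf9d lists held 616 and 1139 nuclear peaks, against 884 and 704 in the wild_type lists. Fold enrichment is the authors' ratio of the read pileup at a peak's summit to a local background. Its median over a list was 2.50 in yaf9d replicate 1 and 1.80 in yaf9d replicate 2, against 1.83 in wild_type replicate 1 and 1.92 in wild_type replicate 2. In both length and median fold, the yaf9d lists stood on either side of the wild_type lists. No peak overlapped YAF9 or SWC4 in any of the 4 lists, so the lists hold no direct check of the deletion. A locus without a peak was not called in that library, which does not show that Swc4 was absent there.

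The 76 loci were mostly of modest enrichment. Their width ran from 276 to 1983 bp with a median of 480 bp, beside 485 bp over all 1726 loci. Each held exactly 1 peak per yaf9d library. Outside tRNA genes, the median width was 651 bp at the 86 loci called in both yaf9d libraries and 1 wild_type library. It was 913 bp at the 214 loci of all 4 libraries and 667.5 bp at the 118 loci called in wild_type only. A locus can widen as it joins more peaks. The 76 loci were thus narrower than these 3 sets. The yaf9d-only loci at tRNA genes were narrower still, with a median of 311.5 bp. Fold enrichment ran from 1.27 to 9.53 in yaf9d replicate 1, with a median of 2.10, and from 1.25 to 4.66 in yaf9d replicate 2, with a median of 1.84. The authors' −log10 q-value, their measure of confidence at the summit, had a median of 9.49 (range 1.47 to 226) in replicate 1 and 11.002 (range 1.44 to 210) in replicate 2. A fold of 2 or more in both libraries was found at 30 loci and a fold of 3 or more in both at 8, while 30 loci were under 2 in both. Few of the loci were therefore strong in both libraries, and many were weak.

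As a share of list length, the loci ranked lower in yaf9d replicate 1 (616 peaks) than in yaf9d replicate 2 (1139 peaks). Counted from the strongest peak, the median rank was 63.8% of the way down the list in yaf9d replicate 1 and 47.0% in yaf9d replicate 2. The 214 loci called in all 4 libraries outside tRNA genes had median ranks of 23.5% and 14.9% in the same lists. When the 376 loci called in both yaf9d libraries outside tRNA genes were ordered by their mean rank and divided into 4 equal parts of 94, the yaf9d-only loci were 4, 14, 25 and 33 of these, from the strongest part to the weakest. Loci of all 4 libraries were 85, 55, 37 and 37 of the same parts. Loci called in yaf9d only thus made up a larger share of each weaker part.

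**Figure D1:**
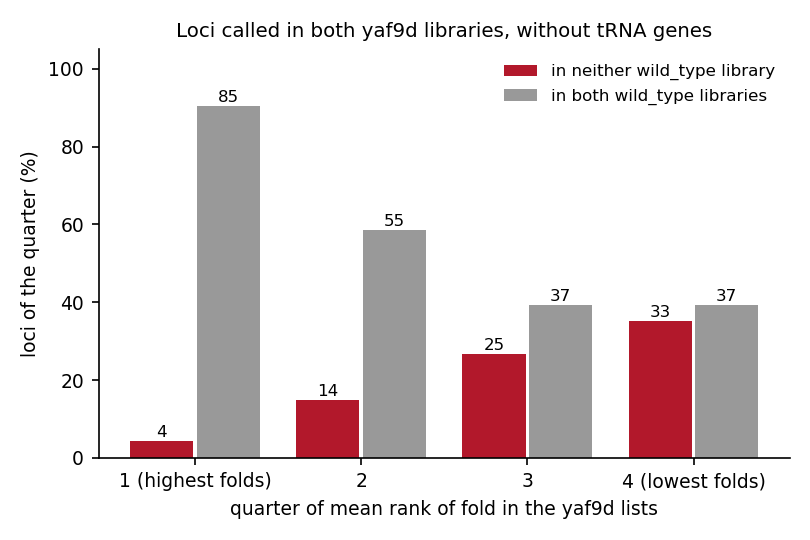
Percent of loci (y axis) called in neither wild_type library (red) and in both wild_type libraries (grey), in 4 equal parts of 94 of the 376 loci called in both yaf9d libraries outside tRNA genes, from the highest to the lowest mean rank of fold (x axis), with numbers of loci above the bars. The yaf9d-only loci are 4.26% of the strongest part and 35.1% of the weakest, while loci of all 4 libraries are 90.4% of the strongest and 39.4% of the weakest.

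Both yaf9d libraries placed most summits close together, which the rule favours because their peaks had to overlap. The summits of a locus lay a median of 13 bp apart (range 1 to 663 bp), and 57 of 76 loci (75%) had them within 50 bp. The 214 loci of all 4 libraries had a median of 11 bp between the yaf9d summits, with 167 (78.0%) within 50 bp. The 86 loci called in both yaf9d libraries and 1 wild_type library had a median of 24.5 bp, with 58 (67.4%) within 50 bp. The 26 yaf9d-only loci at tRNA genes had a median of 14 bp, with 25 (96.2%) within 50 bp. Folds in both yaf9d libraries were related over the 76 loci (Spearman's rho 0.773, n = 76 loci) and over the loci of all 4 libraries (rho 0.920, n = 214 loci). These correlations run across loci of the same library pair and describe those libraries only. Yaf9d replicate 1 had the higher fold at 49 of the 76 loci. The widest gap between summits was at ARG1, where 663 bp separated a promoter summit in replicate 1 from one inside GPD2 in replicate 2. That locus joins peaks at 2 places. Summits lay within 200 bp at 67 of the 76 loci. Other wide gaps were at OAC1 (478 bp), ALD4 (463 bp), PRY3 (421 bp) and TFC7 (372 bp). The 2 folds of such a locus belong to different positions.

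**Figure D2:**
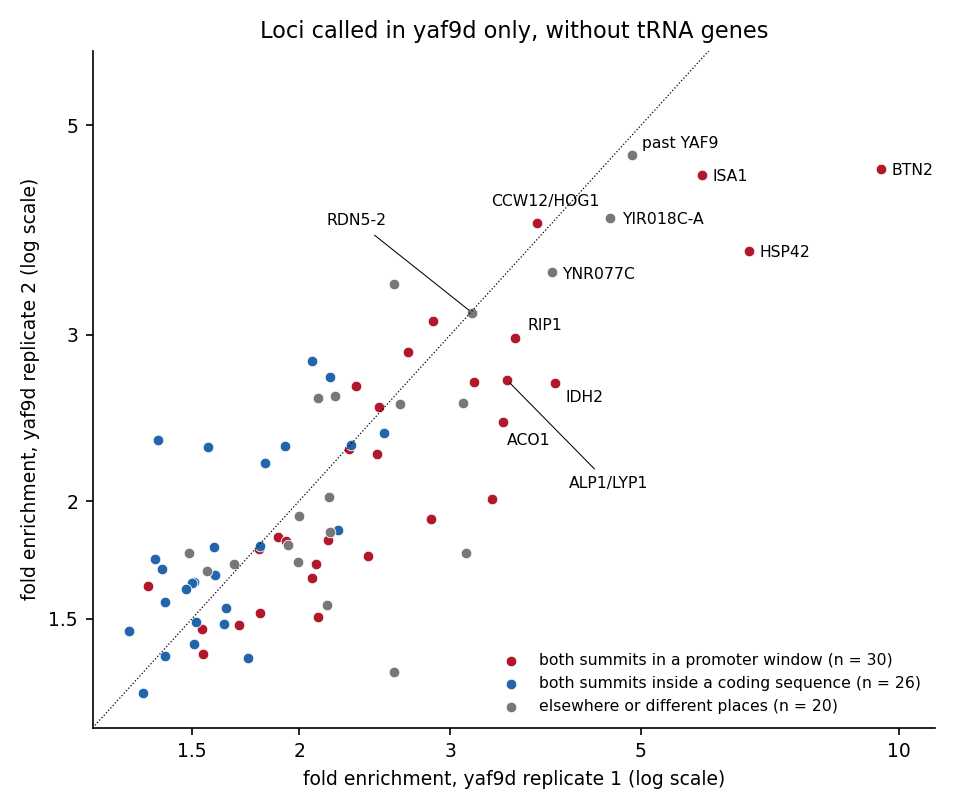
Fold enrichment of the 76 loci in yaf9d replicate 1 (x axis, log scale) and yaf9d replicate 2 (y axis, log scale), each point a locus, coloured by where its summits lie, with a dotted line of equal fold. The 12 named loci have the best mean rank, and BTN2 stands farthest right at 9.53. The loci with both summits inside coding sequence, outside promoter windows and RNA genes, gather at the low end with medians of 1.58 and 1.68.

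Heat shock and protein-sorting genes held 2 of the 3 best-ranked loci. The best-ranked locus lay upstream of BTN2, which codes for a protein that carries misfolded proteins to deposit sites, on chromosome VII from 771574 to 772371. Its fold was 9.53 in yaf9d replicate 1 and 4.50 in yaf9d replicate 2, with −log10 q-values of 208 and 75.02. The recovered summit pileups there were 348 and 237 reads on the caller's scale, and the summits lay 306 and 292 bp upstream of the BTN2 coding start. HSP42, a small heat shock protein that gathers misfolded proteins in the cytosol and acts with Btn2, had the third-ranked locus, on chromosome IV from 806125 to 807353. The folds at HSP42 were 6.68 in yaf9d replicate 1 and 3.68 in yaf9d replicate 2, with summits 238 and 228 bp upstream of the start. Neither locus was called in a wild_type library, and the nearest wild_type peak to HSP42 was 943 bp away, in replicate 1, with a fold of 1.57.

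The promoters of ISA1, IDH2, RIP1 and ACO1 were also among the best-ranked loci. Of these, ISA1 belongs to a list described below (iron homeostasis), and the other genes belong to none. ISA1, a mitochondrial protein needed to mature iron-sulfur proteins, had the second-ranked locus, on chromosome XII from 86832 to 87215, with folds of 5.90 in yaf9d replicate 1 and 4.43 in yaf9d replicate 2. The summits lay 379 and 388 bp upstream of the ISA1 start, in a gap between genes with no coding sequence under the peak. Upstream of IDH2, a subunit of the NAD-dependent isocitrate dehydrogenase of the citric acid cycle, a locus on chromosome XV from 579752 to 580053 had folds of 3.97 in replicate 1 and 2.67 in replicate 2. RIP1, the Rieske iron-sulfur protein of respiratory complex III, had folds of 3.57 and 2.98 at chromosome V from 106867 to 107206. ACO1, the aconitase of the same cycle, had folds of 3.46 and 2.42 at chromosome XII from 737715 to 738483. In each of these 4 the summits of both libraries lay between 214 and 389 bp upstream of the start, and replicate 1 gave the higher fold.

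The locus on chromosome XIV from 420779 to 421676 adjoined the deleted gene itself. In both yaf9d libraries its peak began at the first base past the last coding base of YAF9, with summits 16 and 20 bp past that base, and the locus ran into the end of INP52, a phosphoinositide phosphatase. The folds were 4.88 in yaf9d replicate 1 and 4.66 in yaf9d replicate 2, with −log10 q-values of 47.9 and 51.3. Yaf9d replicate 2 also had a peak in the YAF9 promoter, with a fold of 2.31 and a summit 385 bp upstream of the start, where yaf9d replicate 1 had none. In wild_type the nearest peaks to YAF9 were 5728 and 5101 bp away. The background at the INP52 side equalled the lowest value of the whole list in both yaf9d libraries, as it did at 2 other loci, the one at RDN5-2 and the one in YOR192C-B. The part of the deletion, or of any sequence put in its place, in this peak was not tested, and the count of 76 includes it.

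Further best-ranked loci lay at chromosome ends, repeats and long gaps between genes. A locus at the end of chromosome XIV, from 783472 to 784318 and near YNR077C, had folds of 3.94 in yaf9d replicate 1 and 3.49 in yaf9d replicate 2. Its summit pileups of 833 and 904 reads were the highest of the 76 loci, and so were its −log10 q-values of 226 and 210. On chromosome XII from 468728 to 469003, a locus over RDN5-2, a gene of the 5S ribosomal RNA transcribed by RNA polymerase III, had folds of 3.18 and 3.16. Copies of the 5S gene and chromosome-end sequences are near-identical, and the sources used here do not say how reads with several matches were placed, so these folds are uncertain. On chromosome IX from 386536 to 386958, a locus 1040 and 1053 bp upstream of YIR018C-A had folds of 4.60 and 3.99 and touched neither a promoter window nor a coding sequence.

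Of the remaining best-ranked loci, the one on chromosome XII from 370478 to 371364 touched the promoters of CCW12, a major cell wall mannoprotein, of HOG1, the MAP kinase of the osmotic stress response, and of YLR112W. Its folds were 3.78 in yaf9d replicate 1 and 3.94 in yaf9d replicate 2. The summits lay 511 and 542 bp upstream of CCW12 but 1011 and 980 bp upstream of HOG1, so both lay outside the 500 bp window of either gene. This locus had a wild_type peak 420 bp away, in replicate 1, with a fold of 1.28. The locus shared by LYP1 and ALP1, the lysine and arginine permeases, on chromosome XIV from 137930 to 138431, had folds of 3.49 and 2.69, with summits 266 and 264 bp upstream of LYP1. Over the 12 loci, BTN2, ISA1 and HSP42 led on mean rank.

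A promoter was taken as the 500 bp before a coding start. The 76 loci touched 68 of 6002 promoters of nuclear coding genes, a background of 1.13%, and overlapped 62 of 6002 coding sequences, a background of 1.03%. A promoter or coding sequence of 111 genes (1.85%) was touched. Loci of all 4 libraries touched 399 promoters (6.65%) and loci called in wild_type only touched 181 (3.02%). At least 1 promoter was touched by 50 of the 76 loci (65.8%), beside 1045 of all 1726 loci (60.5%) and 194 of the 214 loci of all 4 libraries (90.7%). More than 1 promoter was touched by 15 of the 76. Of the 76 loci, 15 touched a promoter and no coding sequence, 21 overlapped a coding sequence and no promoter, and 5 touched neither.

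The lists of genes below were chosen with earlier results of these data known, and BTN2, HSP42, ISA1, CCW12 and HOG1 were known to be touched when they were written, so each count is a description to be read beside 1.13%. Amino acid and nitrogen transport had 5 of 21 promoters touched (23.8%), those of ALP1, LYP1, MEP3, MUP1 and PTR2, from 4 loci because ALP1 and LYP1 share 1. Loci of all 4 libraries touched 4 of these 21 promoters, and loci called in wild_type only touched 1. Those counts are to be read beside 6.65% and 3.02% of all promoters. MEP3, an ammonium permease, had folds of 3.11 in yaf9d replicate 1 and 2.54 in yaf9d replicate 2, with summits 501 and 506 bp upstream, just beyond the promoter window. At MUP1, the high-affinity methionine permease, the folds were 2.09 and 1.71. PTR2, the transporter of dipeptides and tripeptides, had 1.59 and 1.79 with both summits just inside its coding sequence, and TAT2, a tryptophan permease, had 1.48 and 1.61 in its coding sequence alone. The transport loci thus ran down from well-enriched promoters to weak peaks in coding sequence.

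Amino acid biosynthesis had 3 of 47 promoters touched (6.38%), those of MET6, CPA1 and ARG1. Loci of all 4 libraries touched 9 of these 47 promoters, and loci called in wild_type only touched 2. MET6, the methionine synthase, shares its upstream gap with IES5, a subunit of the INO80 remodeller and the only one of 34 SWR1, NuA4 and INO80 subunits touched. That locus had folds of 2.48 in yaf9d replicate 1 and 2.51 in yaf9d replicate 2, with summits 178 and 174 bp from the nearer start. CPA1 makes carbamoyl phosphate for arginine, and the locus upstream of it and of its upstream reading frame YOR302W had folds of 1.89 and 1.83. ARG1, argininosuccinate synthetase, had 2.58 and 1.32 at the locus with the widest gap between summits. ARG8, the acetylornithine aminotransferase, had 1.51 and 1.41 inside its coding sequence.

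Iron homeostasis had 3 of 29 promoters touched (10.3%), those of ISA1, AFT1 and FIT3. Loci of all 4 libraries touched 1 of these 29 promoters, and loci called in wild_type only also touched 1. AFT1, the transcription factor that turns on iron uptake genes, had folds of 2.17 in yaf9d replicate 1 and 2.02 in yaf9d replicate 2, with summits 648 and 660 bp upstream and an overlap with the end of HSF1, the heat shock transcription factor. FIT3, a cell wall mannoprotein that retains iron-siderophores, had folds of 1.37 and 2.32 with both summits inside its coding sequence. ARN1, a siderophore transporter, had 2.07 and 2.81 in its coding sequence, and the iron reductase family gene FRE6, which is in no list, had 1.38 and 1.69 in its own. Apart from ISA1, the iron genes had moderate or weak peaks with no summit in a promoter window.

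Heat shock proteins, chaperones and protein sorting had 2 of 30 promoters touched (6.67%), BTN2 and HSP42, and 2 more genes touched in coding sequence only, the Hsp90 cochaperone AHA1 and the Hsp70 SSA2. SSA2 had folds of 1.51 and 1.64 in yaf9d replicates 1 and 2, and AHA1 had 2.002 and 1.93. Stress transcription factors had 2 of 12 promoters touched (16.7%). These were CIN5, a bZIP factor of the salt stress response, with folds of 2.41 and 1.75, and XBP1, a stress-induced repressor, with 1.79 and 1.78 at a locus it shares with SGA1, a glucoamylase of sporulation. Cell wall genes had 2 of 36 touched (5.56%), CCW12 and TIR1, a mannoprotein of anaerobic and cold-grown cells, with folds of 2.29 and 2.27 at TIR1. Loci of all 4 libraries touched 0 of the 30 chaperone, 1 of the 12 stress factor and 2 of the 36 cell wall promoters. Loci called in wild_type only touched 0, 0 and 1 of them.

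A single promoter was touched in each of 5 more lists. These were HOG1 among 25 MAP kinase genes (4%), PFK2, the beta subunit of phosphofructokinase, among 35 genes of hexose transport and glycolysis (2.86%), GSH1, the first enzyme of glutathione synthesis, among 24 genes of oxidative stress defence (4.17%), IES5 among the 34 remodeller subunits (2.94%) and TFC7, a TFIIIC subunit, among 23 genes of RNA polymerase III (4.35%). Folds were 1.80 in yaf9d replicate 1 and 1.52 in yaf9d replicate 2 at PFK2 (summits 716 and 724 bp upstream), 2.47 and 2.25 at GSH1, and 1.94 and 1.80 at TFC7. The GSH1 locus also lies upstream of LSB6, a phosphatidylinositol kinase. At TFC7 the summits lay 829 bp upstream in replicate 1 and 457 bp upstream in replicate 2. In the same order of lists, loci of all 4 libraries touched 1, 3, 1, 1 and 0 promoters. No promoter was touched among the lists for the galactose regulon, G1 cyclins, proteasome, ergosterol, trehalose and glycogen, translation factors, ribosome assembly, histones, DNA repair, kinetochore and telomere genes. Ribosomal protein genes, touched at 82 of 138 promoters by loci of all 4 libraries, had 0 of 138 touched by the yaf9d-only loci and 2 by loci called in wild_type only. A locus called in all 4 libraries cannot be a yaf9d-only locus, so the 82 and the 0 are partly tied by the rule. At a background of 1.13% of promoters, few or none of any list would be touched, so these zeros are no result about the lists.

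Promoters of genes in no list made up the rest, and they are named here because they were touched, not for a shared function. With a fold of 2 or more in both yaf9d libraries, these were DDR2, a small stress-induced protein (3.20 in replicate 1 and 2.67 in replicate 2), the shared upstream gap of IRC15 and of SWI1, a subunit of the SWI/SNF remodeller (2.86 and 3.11), SIM1, a SUN family wall protein (2.68 and 2.87), PRB1, the vacuolar protease B, with HHY1 (3.35 and 2.01), TPO1, a polyamine transporter (2.62 and 2.54), and SRC1, an inner nuclear membrane protein (2.17 and 2.71). YGL007C-A, at a locus that also covers BRP1 and lies 837 and 838 bp upstream of PMA1, the plasma membrane proton pump, had 2.33 and 2.65. Of these, SRC1 and the BRP1 locus had both summits inside a coding sequence.

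Under a fold of 2 in at least 1 yaf9d library, metabolic and mitochondrial genes with a touched promoter were OAC1, a mitochondrial oxaloacetate carrier (3.13 in replicate 1 and 1.76 in replicate 2), PCK1, the gluconeogenic phosphoenolpyruvate carboxykinase (1.99 and 1.72), SUE1, which acts in cytochrome c turnover (2.10 and 1.51), YAT1, a carnitine acetyltransferase (1.54 and 1.46), INO1, the inositol phosphate synthase (1.27 and 1.46), STL1, a glycerol symporter (1.70 and 1.48), and PEX9, a peroxisomal import receptor (2.07 and 1.66). The INO1 summits lay inside SNA3, 537 and 542 bp upstream. The OAC1 summits lay 356 bp upstream in replicate 1 and 834 bp upstream, inside DGR2, in replicate 2. Regulators and others were TOS8, a homeodomain factor (2.17 and 1.85), MBF1, a coactivator, with BUD7 (1.60 and 1.67), SUR1, of sphingolipid synthesis, with LCL1 (2.22 and 1.87), VPS36, an ESCRT subunit, with PUN1 and YLR415C (1.93 and 1.81), CTR2, a vacuolar copper transporter, over the glycolytic gene ENO2 (1.32 and 1.25), and MNL2 over ERG3, a sterol desaturase (1.36 and 1.74). TVS1, COS111, RTS3, YGR161W-C, PRY3, YJL077W-A, YJL077W-B, YIL055C, YIL054W, YMR206W and YHR033W completed the touched promoters, with YLR154C-H at the RDN5-2 locus. Without RDN5-2, the folds at these loci ran from 1.33 to 2.85 in replicate 1 and from 1.38 to 1.91 in replicate 2.

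**Figure D3:**
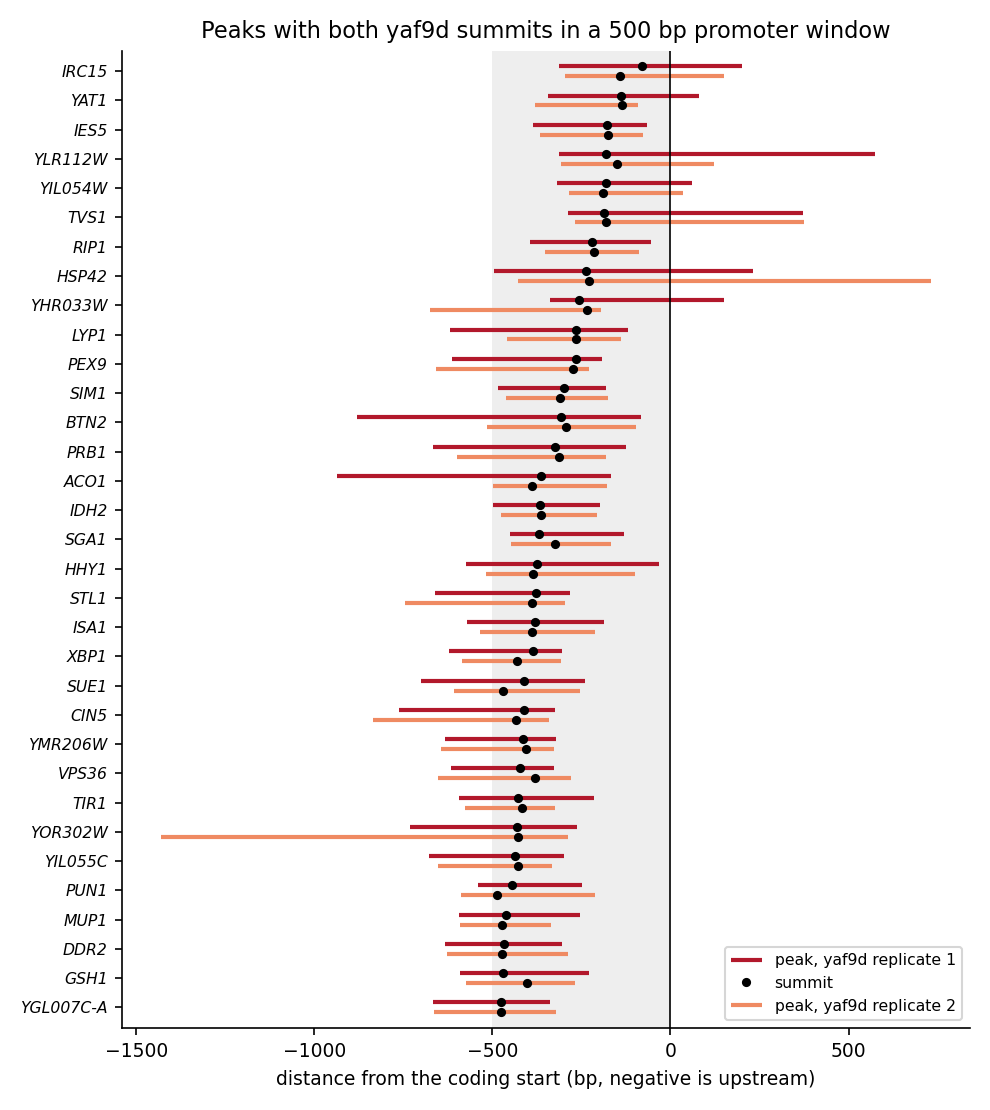
Extent of the peaks (bars) and their summits (points) in yaf9d replicates 1 and 2, as distance in bp from the coding start (x axis, start at 0, upstream negative), for the 33 genes with a summit of both libraries in the promoter window. Each row is 1 gene, the 500 bp window is shaded, and the gene with the nearest replicate 1 summit is at the top. In replicate 1 the IRC15 summit lies nearest to its start, at 81 bp upstream (143 bp in replicate 2). In replicate 2 the YAT1 summit lies nearest, at 136 bp upstream. The BTN2 summits lie 306 and 292 bp upstream, and in most rows both summits nearly coincide.

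Loci with no touched promoter numbered 26, of which 21 overlapped a coding sequence. Many of these were weak peaks within genes, among them TUB4, the gamma-tubulin of the spindle pole body (1.75 in yaf9d replicate 1 and 1.36 in yaf9d replicate 2), MOT2, a ubiquitin ligase of the Ccr4-Not complex (1.396 and 1.56), SCT1, an acyltransferase of lipid synthesis (1.52 and 1.49), and ALD4, a mitochondrial aldehyde dehydrogenase (1.82 and 2.19). CCS1, the copper chaperone of superoxide dismutase, had 1.49 and 1.76, and its summits lay 823 and 824 bp upstream of MSN2, a general stress transcription factor. CYC3, CRR1, JSN1, SEF1, FSF1, YOL036W, YPR015C and YPR195C were the others not yet named, and the Ty reading frame YOR192C-B had 2.51 and 2.36. How reads with several matches were placed is unknown for this Ty frame too, so its folds are also uncertain. The 5 loci that touched neither lay upstream of YIR018C-A, of HXK1, a hexokinase (2.20 and 2.58, with summits 1112 and 1081 bp away), of BUD9 (2.10 and 2.57) and of MRX16 (2.15 and 1.55), and at the end of chromosome XI (2.58 and 3.39).

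Enrichment differed with the place of the summit. At 30 loci both summits lay in a promoter window, with median folds of 2.44 in yaf9d replicate 1 and 2.13 in yaf9d replicate 2, and 16 of these loci had a fold of 2 or more in both. At 26 loci both summits lay inside a coding sequence outside any promoter window or RNA gene, with medians of 1.58 and 1.68 and 4 loci at 2 or more in both. The 14 loci with both summits elsewhere had medians of 2.39 and 2.56, with 10 at 2 or more in both. The other 6 loci had summits in different places. The 26 loci inside genes thus had the lowest medians of these classes in both libraries, and no test was made because fold and call come from the same lists. They leave out loci with summits inside a gene that also lay in a promoter window or RNA gene. Among those left out, the CCW12 and HOG1 locus had folds of 3.78 and 3.94, and SUE1 had 2.10 and 1.51.

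By library, 42.1% and 40.8% of the summits of the 76 loci lay in a promoter window in yaf9d replicates 1 and 2. The 86 loci called in both yaf9d libraries and 1 wild_type library, the set most like them, had 41.9% and 39.5% in the same libraries, and all loci called in each had 39.1% and 24.1%. Loci of all 4 libraries had 54.2% and 52.8% in the yaf9d libraries and 48.6% and 43.0% in the wild_type libraries, while loci called in wild_type only had 40.7% and 42.4%. Summits inside any coding gene were 34 and 37 of 76 (44.7% and 48.7%) at the yaf9d-only loci. They were 25.7% and 29.9% in yaf9d and 36.4% and 38.8% in wild_type at the loci of all 4 libraries, and 86.4% and 83.1% at the loci called in wild_type only. The 86 loci with 1 wild_type call had 33.7% and 44.2% in the yaf9d libraries, and all loci called there had 34.8% and 67.6%. The share inside genes at the yaf9d-only loci was thus above that of the loci of all 4 libraries, but in replicate 2 below that of all loci.

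**Figure D4:**
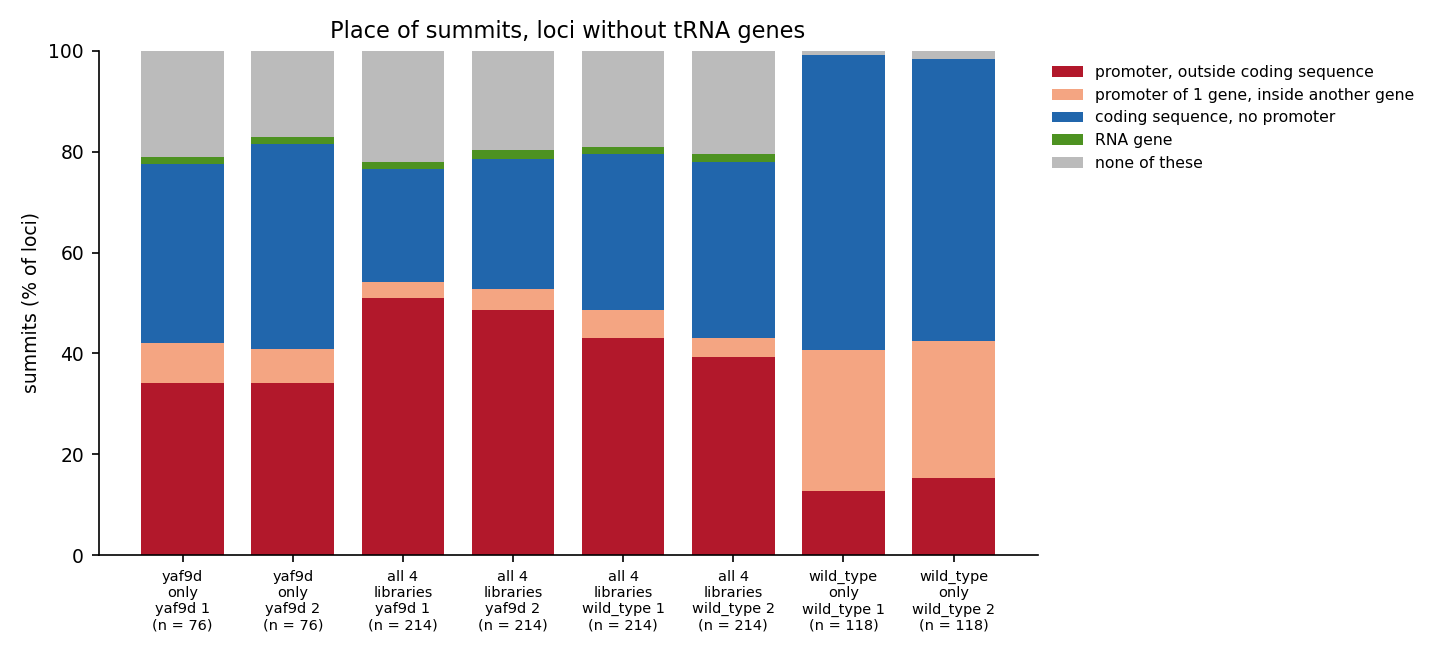
Percent of summits (y axis) by place for loci outside tRNA genes, with 1 bar per set and library (x axis), for the 76 yaf9d-only loci, the 214 loci of all 4 libraries and the 118 loci called in wild_type only. Promoter summits (both red shades together) are 42.1% and 40.8% at the yaf9d-only loci, and the loci called in wild_type only are nearly all in coding sequence or in a promoter window.

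Between genes, the yaf9d-only summits lay mostly between genes that point the same way. Of the summits outside coding genes, 69.0% and 64.1% in yaf9d replicates 1 and 2 lay between tandem genes and 21.4% and 25.6% between divergent genes. At loci of all 4 libraries the same libraries gave 37.1% and 36.7% tandem and 56.0% and 56.0% divergent. The 86 loci with 1 wild_type call gave 45.6% and 43.8% tandem, and all loci called in these libraries gave 43.8% and 46.1%. The yaf9d-only loci set aside at tRNA genes gave 64% tandem and 28% divergent in both libraries. The tandem share of the yaf9d-only loci outside tRNA genes was thus the highest of these sets. In replicate 2 it was nearly equal to that of the yaf9d-only loci at tRNA genes. A high tandem share was therefore not particular to the loci outside tRNA genes. For summits upstream of the nearest coding start, the median distance was 420.5 and 422 bp at the yaf9d-only loci outside tRNA genes. It was 354 and 356 bp at the loci of all 4 libraries. At the 86 loci with 1 wild_type call it was 441 and 496 bp, and at all loci 409 and 482 bp. The distance was therefore not longer than at the most similar set. These shares and distances describe the lists and were not tested.

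The loci lay on all 16 chromosomes in unequal number. Chromosome XV held 14 of its 153 loci (9.15%) and chromosome XII 11 of 154 (7.14%), whereas chromosome IV held 4 of 209 (1.91%), beside 4.4% over the genome. Within 5 kb of each other lay 3 pairs of loci, TPO1 and ISA1 (2422 bp apart), TUB4 and CRR1 (602 bp) and MBF1 and CPA1 (3196 bp). Within 20 kb of a chromosome end lay 5 of the 76 loci (6.58%), beside 65 of all 1726 loci (3.77%). Outside tRNA genes, the share was 6.98% at the 86 loci called in both yaf9d libraries and 1 wild_type library. It was 7.98% at the 376 loci called in both yaf9d libraries, 8.88% at the loci of all 4 libraries and 0.847% at those called in wild_type only. The share at the 76 loci was thus not above that of the most similar set. Within 1000 bp of a tRNA gene lay 2 of the 76, TAT2 at 536 bp and YOR192C-B at 600 bp.

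**Figure D5:**
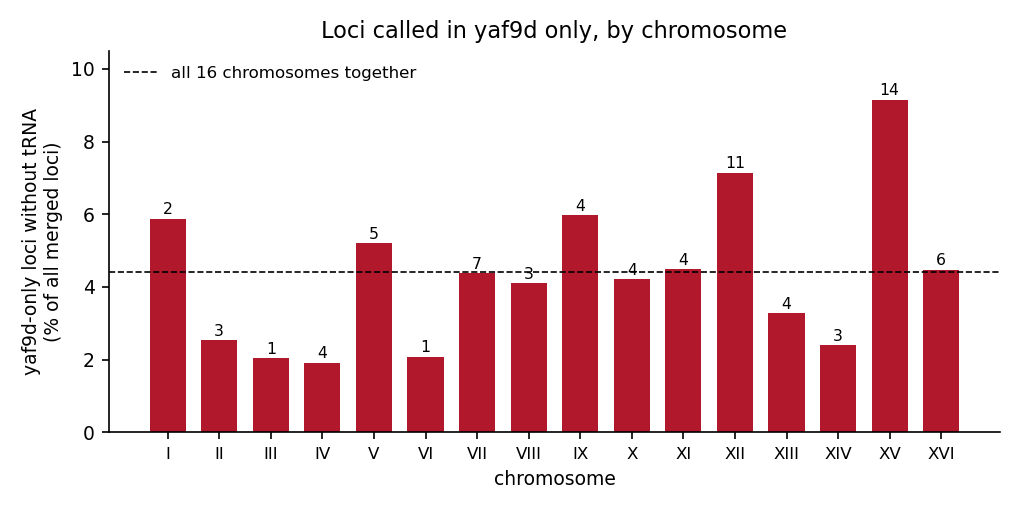
Percent of all loci on each chromosome that are yaf9d-only loci outside tRNA genes (y axis), for the 16 nuclear chromosomes (x axis), with the numbers of loci given and the share over the genome as a dashed line. Chromosome XV is highest at 9.15% (14 of 153) and chromosome IV is low at 1.91% (4 of 209).

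The loci lay at varied distances from wild_type peaks. The rule kept out any locus that a wild_type peak overlapped. The same distances were not computed for other loci or positions, so they are a description without a background. The nearest wild_type peak lay a median of 4480 bp away (range 212 to 49601 bp), 17 loci had one within 1000 bp, and 5 had one within 500 bp. Those 5 were CTR2 (212 bp, fold 1.45 in wild_type replicate 1), ARG1 (304 bp, fold 1.38 in wild_type replicate 1), YOR192C-B (419 bp, fold 2.53 in wild_type replicate 2), the CCW12 and HOG1 locus (420 bp) and YIL055C (498 bp, fold 1.38 in wild_type replicate 2). These gaps are about as long as a peak, whose median width was between 407 and 612 bp in the 4 lists.

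The threshold passed close to several loci. Inside it with the weakest confidence were TUB4, with −log10 q-values of 4.10 in yaf9d replicate 1 and 1.44 in yaf9d replicate 2, MOT2 with 1.47 and 4.18, and INO1 with 1.47 and 5.95. Just outside it were loci kept out by 1 weak wild_type peak. One spans ECM30, DIF1, CAR2 and MRPL4 on chromosome XII from 1011606 to 1014133, with folds of 3.09 and 2.38 in yaf9d and 1.25 in wild_type replicate 1, whose −log10 q-value was 1.32. TMN3 had folds of 1.5 and 1.95 in yaf9d and 1.44 in wild_type replicate 2 (−log10 q-value 1.34), and YNL208W had 1.47 and 1.71 in yaf9d and 1.24 in wild_type replicate 2 (−log10 q-value 1.37). The 86 loci called in both yaf9d libraries and 1 wild_type library outside tRNA genes had median yaf9d folds of 2.16 and 2.08. The 76 loci had 2.10 and 1.84, which was close in replicate 1 and lower in replicate 2. Median ranks were 60.3% and 34.2% down the lists at the 86 loci, against 63.8% and 47.0% at the 76.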

How the data were processed

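The authors deposited 1 peak list per library. The submitters' processing notes name MACS2 (version 2), SAMtools 1.4 and BWA 0.7.15-r1140. The sources used here do not give their settings, the control, the peak threshold or the genome build. Each deposited list holds the authors' fold enrichment (a ratio) at the summit, their −log10 p-value and −log10 q-value, and a score, which was not used.

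Peaks were merged into loci by an overlap of at least 1 bp. Gene names, tRNA genes and places relative to genes came from the RefSeq R64 table, whose coordinates are not printed. Printed coordinates are those of the deposited lists, with starts counted from 1. Summit pileups and backgrounds were recovered from the fold and the −log10 p-value through a Poisson tail, within 0.001, for 99.0% to 99.9% of the peaks of a library. The merging code was checked on simulated loci that lay far apart and whose peaks always overlapped. Close neighbours and loci that join peaks at different places were not simulated. The 12 loci described first have the best mean rank over both yaf9d lists. The 3 loci just inside and just outside the rule, the genes of the 23 lists and all touched promoters were also named. Members and lists were chosen with earlier results of these data known. No test was made, because the rule used the calls. Folds describe peaks within their own list. Alternatives changed the q-value and fold minimum, the overlap, the promoter length and the libraries. Motifs and sequences were not analysed here. Python 3.11.15, NumPy 2.4.6, SciPy 1.17.1 and matplotlib 3.10.9 were used.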

Additional observations from a re-analysis of the deposited data

Results flagged for a closer look

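A signal outside the nuclear peaks was found in 1 library. The list of yaf9d replicate 2 held 39 peaks on the mitochondrial genome, with folds from 1.37 to 2.37 and a median of 1.85, whereas the lists of yaf9d replicate 1 and of both wild_type libraries held 0. Mitochondrial peaks entered none of the loci described above. The part of this library difference in the yaf9d-only calls was not tested.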

How the results depend on the processing

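The number of yaf9d-only loci depended on the threshold and on the libraries. It was 76 as reported, 47 with a −log10 q-value of 5 or more asked of the yaf9d peaks and 30 with a fold of 2 or more asked of them. A −log10 q-value of 5 or more asked of all 4 lists gave 74 loci, which overlapped 47 of the 76. Leaving out 1 library gave 114 to 518 loci: 518 without yaf9d replicate 1, 165 without yaf9d replicate 2 and 127 without wild_type replicate 2, by fewer calls being asked. Promoters touched were 68, against 29 with the fold minimum, 39 with a 250 bp promoter, 41 counted by summits, and 119 to 220 with 1 library left out (220 without yaf9d replicate 1, 128 without yaf9d replicate 2, 119 without wild_type replicate 1 and 133 without wild_type replicate 2). The mean share of summits in promoters was 41.4%, against 39.9% and 45.7% with the q-value minimum in all lists and in yaf9d, 53.3% with the fold minimum, 48.3% with summit windows, 12.5% and 69.7% with promoters of 250 and 1000 bp, and 14.7% to 42.1% with 1 library left out. Each locus was also given the mean of its yaf9d folds. The median of these means over the loci was 1.98, against 2.26 and 2.43 with the q-value minimum in all lists and in yaf9d. It was 2.88 with the fold minimum, 2.19 with summit windows, and 1.66 to 2.09 with 1 library left out. These are counts, shares and medians of the yaf9d-only loci, and differences from other sets of loci were not recomputed. No paired analysis was possible because the values come from no test, and whether a replicate number marks a shared culture or day across genotypes is unknown. The lists give no read totals, so depth could not be set equal, and a missing peak may lie just under the threshold.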
